A study of Homo sapiens with 7 samples.

Results

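The immediate early genes FOS, FOSB, FOSL1, JUN, JUNB, JUND, EGR2, EGR3, IER2 and NR4A1 were examined in HCT116 cells, a human colorectal carcinoma line, by PIXUL-ChIP-seq of 6 chromatin marks. These 10 genes were taken by name from the 20163 protein-coding genes of the GENCODE annotation, and every deposited interval over the gene body and 20000 bp on either side was collected. The series holds 7 libraries, 1 per antibody, each from a single well of 200000 cells that was crosslinked and sheared for 6 min in 100 µl. Peak lists of H3K4me1, H3K4me3, H3K9Ac, H3K27me3, H3K36me3 and CTCF were used, and H3K27Ac was not analysed here. The labels name no drug, serum deprivation or stimulation for these wells. They also do not say whether the cells were in full serum or serum deprived. The lists thus describe 1 culture state of an unmodified line, with its serum state unknown. No replicate exists for any mark, and no test between conditions was possible.

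As a class, immediate early genes are transcribed within minutes of a growth factor, serum or stress signal, without new protein synthesis. Induction of the single genes was not measured here, and they need not share it equally. Serum response factor (SRF) with its ETS-family partners and CREB bind their promoters and pass the signal of the MAP kinases to RNA polymerase II. FOS, FOSB and FOSL1 encode FOS-family proteins that pair with the JUN-family proteins of JUN, JUNB and JUND to form the AP-1 transcription factor. EGR2 and EGR3 encode zinc-finger factors, NR4A1 encodes an orphan nuclear receptor, and IER2 encodes a small nuclear protein of the same early response. In chromatin, H3K4me3 and H3K9Ac mark active or poised promoters, H3K4me1 flanks promoters and marks enhancers, H3K36me3 follows elongating polymerase, H3K27me3 marks Polycomb repression, and CTCF is the zinc-finger protein of insulators and loop anchors.

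The promoter sequences below show where motifs of these factors were found, with JUN as a promoter without an exact match to any of them. The sequences lie under the H3K4me3 and H3K9Ac peaks described afterwards. They were read from hg19, 5′ to 3′ on the gene strand, and leave out bases that any annotated transcript of the gene places in a 5′ untranslated region. Capitals mark the motif named on each line, and positions count bases upstream of the start site of the canonical transcript.
FOS, 350 to 160 bases upstream, CArG box, chr14:75745181-75745371, + strand: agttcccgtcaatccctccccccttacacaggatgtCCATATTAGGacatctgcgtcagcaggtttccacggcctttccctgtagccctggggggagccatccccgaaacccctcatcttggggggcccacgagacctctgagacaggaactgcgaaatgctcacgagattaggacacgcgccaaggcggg
FOS, 150 to 11 bases upstream, TATA box, chr14:75745381-75745520, + strand: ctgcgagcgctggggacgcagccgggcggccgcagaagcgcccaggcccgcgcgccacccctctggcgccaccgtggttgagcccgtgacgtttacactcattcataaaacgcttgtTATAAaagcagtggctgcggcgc
FOSB, 350 to 160 bases upstream, CRE and CArG box, chr19:45970904-45971094, + strand: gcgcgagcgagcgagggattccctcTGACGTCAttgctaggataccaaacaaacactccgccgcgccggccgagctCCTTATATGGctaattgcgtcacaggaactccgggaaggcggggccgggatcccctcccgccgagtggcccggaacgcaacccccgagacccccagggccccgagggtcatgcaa
FOSB, 150 to 11 bases upstream, TATA box, chr19:45971104-45971243, + strand: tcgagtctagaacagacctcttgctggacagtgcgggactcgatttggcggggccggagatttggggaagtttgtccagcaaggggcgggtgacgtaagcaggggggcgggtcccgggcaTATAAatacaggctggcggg
EGR2, 450 to 250 bases upstream, distal CArG box, chr10:64576376-64576576, − strand: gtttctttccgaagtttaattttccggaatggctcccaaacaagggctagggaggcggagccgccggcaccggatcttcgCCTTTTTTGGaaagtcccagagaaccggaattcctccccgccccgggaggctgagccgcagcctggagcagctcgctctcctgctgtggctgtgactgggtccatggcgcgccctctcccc
EGR2, 150 to 11 bases upstream, proximal CArG box, chr10:64576137-64576276, − strand: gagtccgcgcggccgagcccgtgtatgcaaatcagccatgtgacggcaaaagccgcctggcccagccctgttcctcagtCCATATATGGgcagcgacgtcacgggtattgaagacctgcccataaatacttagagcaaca
JUND, 200 to 11 bases upstream, CRE and TATA box, chr19:18392443-18392632, − strand: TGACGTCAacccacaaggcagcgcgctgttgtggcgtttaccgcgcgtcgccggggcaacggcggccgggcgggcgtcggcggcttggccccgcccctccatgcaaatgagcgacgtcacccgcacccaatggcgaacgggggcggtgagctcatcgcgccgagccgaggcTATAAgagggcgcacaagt
JUNB, 150 to 11 bases upstream, TATA box, chr19:12902150-12902289, + strand: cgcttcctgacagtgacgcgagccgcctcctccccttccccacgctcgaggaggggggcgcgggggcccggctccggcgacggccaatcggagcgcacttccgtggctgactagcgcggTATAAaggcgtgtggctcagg
NR4A1, 150 to 41 bases upstream, EGR site, chr12:52445076-52445185, + strand: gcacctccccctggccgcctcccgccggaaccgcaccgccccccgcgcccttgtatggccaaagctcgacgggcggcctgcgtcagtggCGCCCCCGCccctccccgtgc
IER2, 27 to 1 bases upstream, ETS site, chr19:13261198-13261224, + strand: CTTCCGGtgcacatgcccccgcccctt
JUN, 150 to 11 bases upstream, none of the motifs, chr1:59249730-59249869, − strand: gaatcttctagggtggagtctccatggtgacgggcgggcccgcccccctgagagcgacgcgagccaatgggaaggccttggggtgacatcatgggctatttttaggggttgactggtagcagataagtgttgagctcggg

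The CArG box, the 10-base element of SRF, was found in the 500 bases upstream of 4 genes. FOS held it 314 to 305 bases upstream of the start site and FOSB 274 to 265 bases upstream. EGR2 held a CArG box at 370 to 361 and another at 71 to 62 bases, and EGR3 held 1 at the same 71 to 62 bases. Over all protein-coding genes, 2.39% held a CArG box in this window, and 2.18% of those with an H3K4me3 peak at the start site did. The CRE, the full element of CREB (TGACGTCA), stood 325 to 318 bases upstream of FOSB and 200 to 193 bases upstream of JUND, beside 2.88% of all promoters. A TATA box (TATAA, gene strand, 50 bases) was present at FOS, FOSB, JUNB and JUND, with its first base 33, 30, 31 and 29 bases upstream. Among all promoters 6.47% had one, and among those with an H3K4me3 peak 2.84%. The ETS site (CCGGAAG) was found at IER2, 27 to 21 bases upstream on the opposite strand, and at EGR3, 474 to 468 bases upstream, with 14.8% of all promoters holding it. The EGR site (GCGNGGGCG), the element of the EGR proteins themselves, occurred at NR4A1, as 2 copies at FOSB and as 3 overlapping copies at JUND, and 15.2% of all promoters held it. The AP-1 site (TGANTCA) occurred in 0 of the 10 windows and in 9.73% of all promoters. FOSL1 and JUN held none of the 6 motifs in exact form. All motifs were searched on both strands apart from the TATA box. Variant forms, such as other ETS sequences, were not counted, so a gene without a match may still hold one. A match here is a string of letters and was not tied to binding. The 10 windows had a median GC content of 65.5% (58.4% over all promoters) and a median CpG observed over expected ratio of 0.844 (0.686 over all). JUND was the richest in GC at 77.2%, and EGR3 the poorest at 55.6%.

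The deposited lists include intervals that the Methods of the study would discard, and the limits given there were applied. An H3K4me1 or H3K27me3 interval was kept with a fold enrichment over 2 and a q-value under 1e-03. The limits for H3K4me3, H3K9Ac, H3K36me3 and CTCF were a fold enrichment over 5 and a q-value under 1e-10. Intervals past these limits are called peaks. A peak at the start site overlapped the 1000 bp on either side of it. In this broad format the fold enrichment is an average over the whole interval, so a wide interval and a narrow one with the same summit carry different values. Sequencing depth cannot be read from the lists. Of the 7 epithelial marker genes, 6 had an H3K4me3 peak at the start site, as did 0 of 4 blood, 0 of 2 endothelial and 1 of 4 fibroblast markers (COL1A1, 9.21-fold). VIL1, the villin gene of the intestinal brush border, was the epithelial marker without one.

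All 10 genes carried H3K4me1, H3K4me3 and H3K9Ac peaks together at the start site. Over the 20163 protein-coding genes this combination was present at 43.1%. Taken singly, H3K4me1 was present at 10 of 10 genes (49.1% of coding genes), H3K4me3 at 10 of 10 (59.1%) and H3K9Ac at 10 of 10 (58.5%). In the other direction, 0 of 10 had an H3K27me3 peak at the start site (1.22% of coding genes) and 0 of 10 an H3K36me3 peak (0.298%). A CTCF peak overlapped the start site window of 1 of 10 genes, JUND, beside 13.6% of coding genes. The 95% Wilson interval of the 43.1% was 42.4 to 43.8%, and it covers counting error only.

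**Figure D1:**
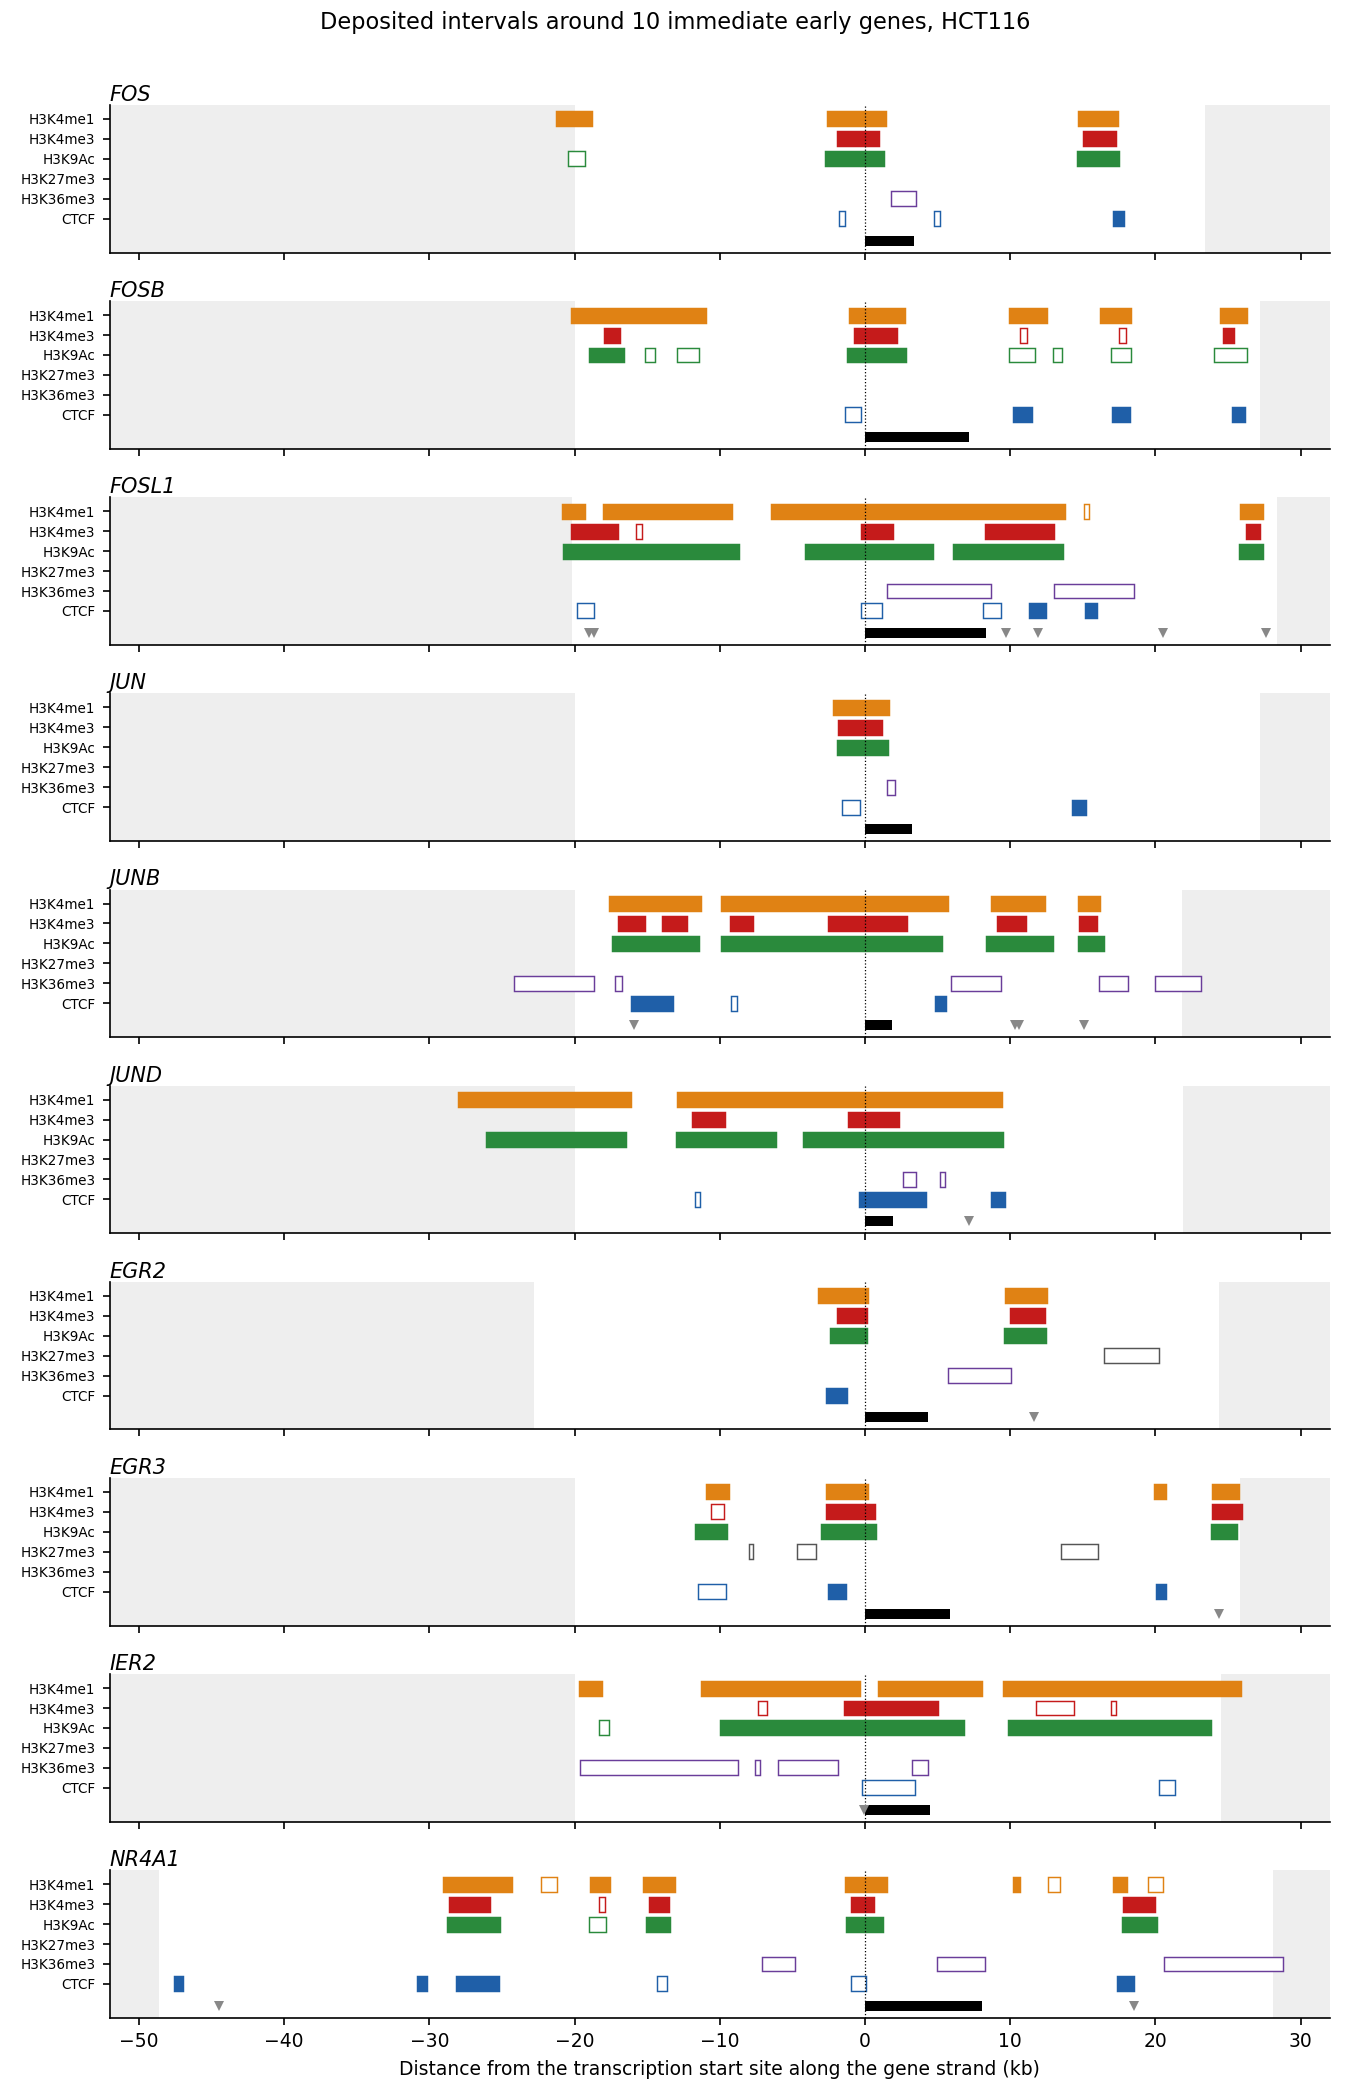
Every deposited interval of the 6 marks around each of the 10 genes, plotted by distance from the start site along the gene strand in kb. Filled bars passed the limits and open bars did not, the black bar is the canonical transcript, grey triangles are start sites of other protein-coding genes, and grey ground lies outside the region collected. The 3 active marks stack at each start site, JUN has no other filled histone bar, and H3K27me3 and H3K36me3 appear as open bars alone.

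In hg19 the genes lie at chr14:75745529-75748933 (FOS), chr19:45971253-45978437 (FOSB), chr11:65659520-65668044 (FOSL1), chr1:59242517-59249720 (JUN), chr19:12902300-12904129 (JUNB), chr19:18390504-18392432 (JUND), chr10:64571756-64578927 (EGR2), chr8:22545172-22550993 (EGR3), chr19:13261225-13265725 (IER2) and chr12:52416616-52453291 (NR4A1). Regions were crowded to very different degrees. In all, 165 intervals were listed in the 10 regions and 107 passed the limits, of which 35 were H3K4me1, 27 H3K4me3, 27 H3K9Ac and 18 CTCF. There were 16 start sites of other protein-coding genes in the regions of 7 genes. FOSL1 had 6 of them and JUNB 4, whereas FOS, FOSB and JUN had 0 inside the region. The closest neighbour was STX10, a syntaxin gene on the opposite strand, whose start site lay 36 bp from that of IER2. The IER2 peaks at the start site cannot therefore be told apart from those of STX10.

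Of the 3 active marks, H3K4me3 varied most between the 10 genes. FOSL1, which encodes the FOS-family protein FRA-1, had the highest fold enrichment at its start site, 43.7, with a −log10 q-value of 169. It was followed by JUND at 25.8, IER2 at 24.9 and JUN at 21.1. JUNB stood at 18.4 and FOS at 15.4. All 3 JUN-family genes lay between FOSL1 and the EGR genes. The lowest values belonged to NR4A1 at 12.6, EGR3 at 11.3, EGR2 at 10.1 and FOSB at 9.93. EGR2 is best known from myelination and EGR3 from muscle spindle development. Across the 11924 coding genes with an H3K4me3 peak at the start site, the median was 22.5 and the quartiles were 17.3 and 27.8. FOSL1 lay at percentile 99.0 of these genes. FOSB, EGR2 and EGR3 lay at percentiles 5.21, 5.54 and 7.63. In all, 5 of the 10 genes were under the lower quartile, 1 was above the upper quartile, and the median percentile was 23.9. With any annotated start in place of the canonical one, the median percentile was 34.0.

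H3K9Ac gave a narrower spread. FOSL1 was again the highest at 15.3, and JUN at 14.04 and JUNB at 13.7 came next. IER2 reached 12.4, FOS 10.9 and JUND 10.6. The lowest values were again those of NR4A1, FOSB and the EGR genes. NR4A1 at 9.97, EGR3 at 8.84, FOSB at 7.94 and EGR2 at 7.46 were under the lower quartile of 10.5. The median over the 11797 coding genes with a peak was 13.1, and 7 of the 10 genes were below it. EGR2 lay at percentile 4.74 and FOSL1 at percentile 70.3. The 4 genes with the lowest H3K4me3 were also the 4 with the lowest H3K9Ac. With 1 library per mark the error of a single value is unknown, and the order of close neighbours such as JUN and JUNB has no replicate check.

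H3K4me1 was high at these genes. All 10 values were above the median of coding genes with a peak, 4.69, and 6 were above the upper quartile of 5.57. IER2 had the highest at 8.05, followed by JUNB at 7.74, NR4A1 at 7.66, EGR3 at 7.42 and JUND at 6.49. FOS had 5.58, FOSB 5.53, FOSL1 5.35 and EGR2 5.13. JUN had the lowest at 4.85. NR4A1 and EGR3, which were among the lowest for both H3K4me3 and H3K9Ac, stood at percentiles 95.2 and 94.2 for H3K4me1. FOSL1, the highest for H3K4me3, stood at percentile 70.1.

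**Figure D2:**
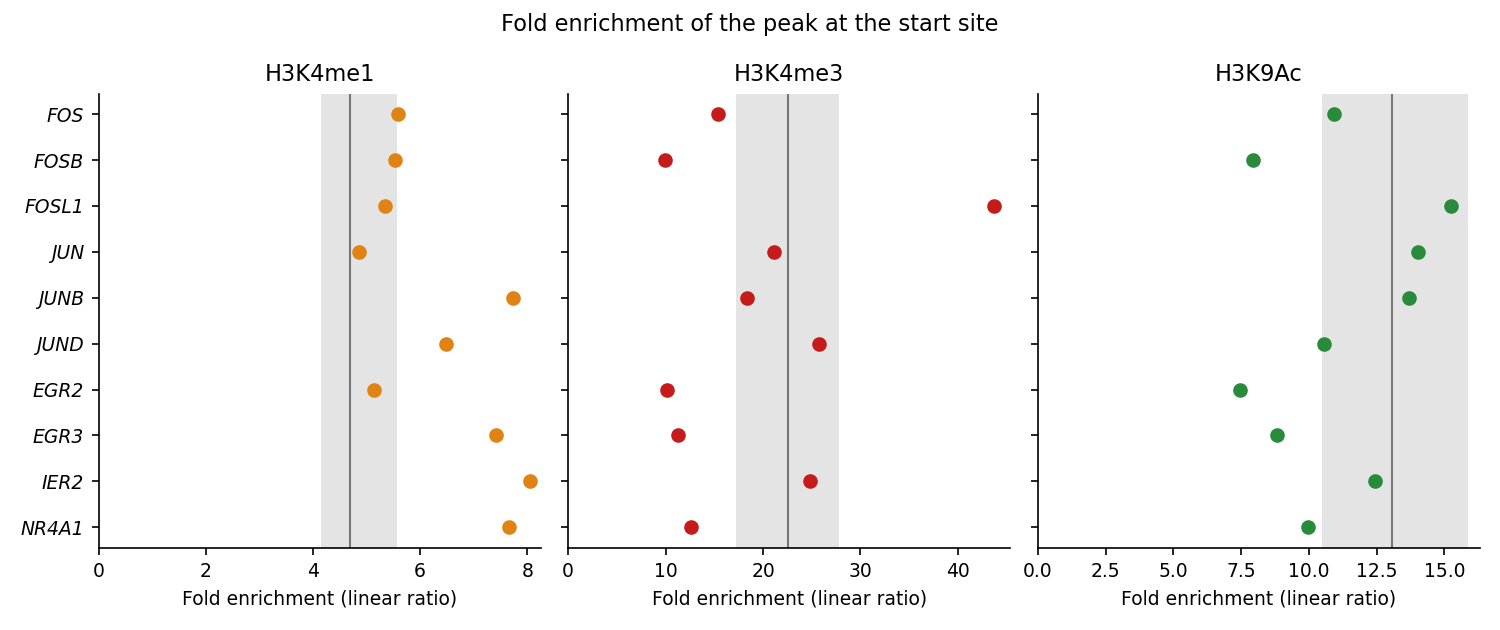
Fold enrichment, a linear ratio, of the highest peak at the start site of each gene for H3K4me1, H3K4me3 and H3K9Ac, 1 library per mark. The grey band and line are the quartiles and the median of all coding genes with a peak of that mark. All 10 points lie right of the line for H3K4me1, and 7 of 10 lie left of it for H3K4me3 and for H3K9Ac.

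The ratio of H3K4me3 to H3K9Ac fold enrichment split the genes further. It was 1.25 at FOSB, 1.27 at NR4A1, 1.28 at EGR3, 1.34 at JUNB, 1.36 at EGR2 and 1.41 at FOS. These 6 values lay under the lower quartile of 1.49 over the 11590 coding genes with both peaks. JUN had 1.504, between the quartiles. IER2 at 2.0, JUND at 2.44 and FOSL1 at 2.86 lay above the upper quartile of 1.93. The ratio compares 2 libraries with different antibodies and depths, so only its order among genes can be read. At IER2, JUND and FOSL1 the H3K9Ac interval was also far wider than the H3K4me3 interval, but so it was at JUNB (15163 beside 5418 bp), where the ratio was low. The part of this width in the ratio was not tested.

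**Figure D3:**
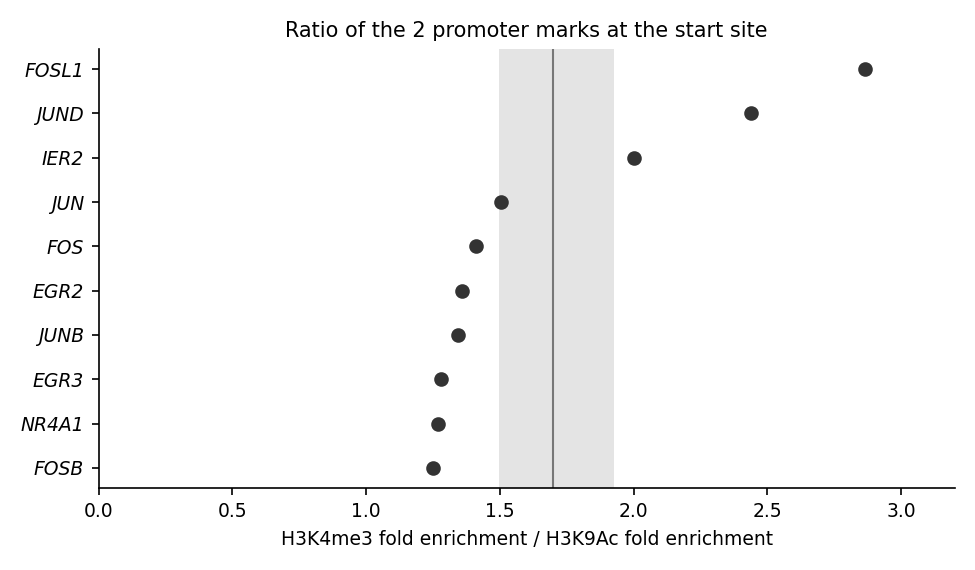
Ratio of the H3K4me3 to the H3K9Ac fold enrichment at the start site of each gene, in order, with the quartiles (grey band, 1.49 to 1.93) and the median (line, 1.70) of 11590 coding genes. JUN is the single gene inside the band, with 6 genes below it and 3 above it.

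The widths of H3K9Ac and H3K4me1 peaks separated 4 genes from the other 6. The H3K9Ac peak at the start site measured 16796 bp at IER2, 15163 bp at JUNB, 13773 bp at JUND and 8849 bp at FOSL1. At the other 6 genes it measured between 2495 bp (EGR2) and 4109 bp (FOS), and the gap between these groups was a factor of 2.15. Of all coding genes with an H3K9Ac peak, the median was 3112 bp and the upper quartile 4305 bp. IER2, JUNB, JUND and FOSL1 lay at percentiles 99.2, 98.8, 98.5 and 95.1. H3K4me1 followed the same division, with 22417 bp at JUND, 20276 bp at FOSL1 and 15640 bp at JUNB. At IER2 H3K4me1 was in 2 peaks, 10924 bp and 7200 bp wide, that left the stretch from 356 bp upstream to 871 bp downstream of the start site uncovered. The other 6 genes had H3K4me1 peaks of 2898 bp (NR4A1) to 4071 bp (FOS). H3K4me3 was wider than the upper quartile of 2591 bp at 7 genes, led by IER2 with 6508 bp and JUNB with 5418 bp. NR4A1, with 1615 bp, had the narrowest H3K4me3 peak, under the lower quartile of 1634 bp. H3K4me3 did not follow the division of the other marks, as FOSL1, with 2203 bp, was narrower than JUN with 3058 bp and EGR3 with 3353 bp.

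These broad domains were not equally shared with neighbours. The 15163 bp H3K9Ac peak of JUNB and the 8849 bp peak of FOSL1 overlapped the start site window of no other protein-coding gene. That of JUND ran over the start site of IQCN, 7170 bp downstream, and that of IER2 over STX10. The 20276 bp H3K4me1 peak of FOSL1 reached the start sites of CCDC85B and FIBP. Whether a broad interval was 1 domain or several joined by the peak caller was not tested.

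**Figure D4:**
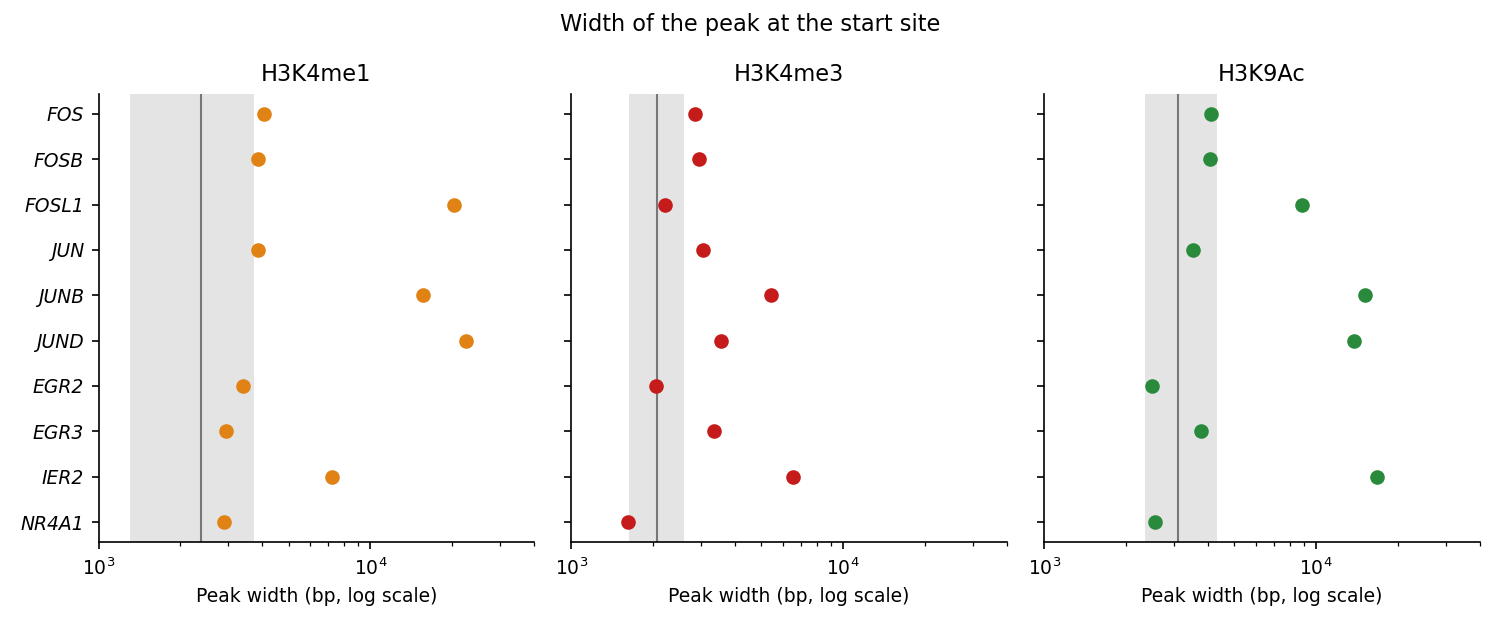
Width in bp, on a log scale, of the peak at the start site of each gene for the 3 active marks, with the quartiles and the median of all coding genes as grey band and line. For H3K9Ac, IER2, JUNB, JUND and FOSL1 sit between 8849 and 16796 bp and the other 6 genes between 2495 and 4109 bp.

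JUN, JUNB and JUND are single-exon genes. H3K4me3 covered 100% of the JUNB, JUND and IER2 transcripts and 36.01% of JUN, beside 8.01% of NR4A1 and 3.18% of EGR2. The median over the 10 genes was 28.9%, whereas the median over coding genes with H3K4me3 at the start site was 4.26%. H3K9Ac covered 44.2% of the transcript at the median gene and 6.55% over coding genes. The transcripts of JUNB and JUND span 1830 and 1929 bp and that of NR4A1 8062 bp. For a peak of a given width the covered share falls with transcript length. Coding genes of matched transcript length were not compared, so the part of length in these differences was not tested. Within the regions the 4 genes with the widest H3K9Ac peaks had the largest H3K9Ac shares, as over the transcripts. The order of the other 6 differed, as JUN was the highest of them over the transcript (48.9%) and the lowest over the region. H3K9Ac covered 69.2% of the IER2 region, 65.7% of JUNB, 60.9% of FOSL1 and 57.8% of JUND, and from 7.50% (JUN) to 16.9% (EGR3) of the other 6. The median region share was 3.54% over coding genes and 5.93% over those with H3K9Ac at the start site. Region shares count every H3K9Ac peak, also those over neighbours such as CCDC85B and FIBP at FOSL1 or HOOK2 and PRDX2 at JUNB.

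The position of the peaks relative to the start site also differed. Over coding genes with an H3K4me3 peak, a median of 39.3% of the peak lay upstream of the start site. EGR2 had 93.2% and EGR3 79.7% upstream, at percentiles 98.8 and 97.8. For H3K9Ac the values were 95.8% and 80.6%, beside a median of 41.1%. The EGR2 peaks ended within exon 1, in its 5′ untranslated part, 138 bp (H3K4me3), 103 bp (H3K9Ac) and 184 bp (H3K4me1) past the start site. The annotation places 2 further starts of EGR2 within the H3K4me3 peak. The start of a long non-coding RNA lies inside the EGR3 H3K4me3 and H3K9Ac peaks. Those of LINC01135 and another long non-coding RNA lie inside the JUN peaks. The part of these starts in the upstream shares was not tested. FOS had 67.1% and JUN 61.6% of the H3K4me3 peak upstream. At FOSL1 it was 11.4%, since the peak ran from 251 bp upstream to 1951 bp downstream, into intron 1. The FOS peaks ended in intron 1 for H3K4me3 and in intron 2 for H3K9Ac and H3K4me1.

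At NR4A1 the canonical start site was not the annotated start with the highest H3K4me3. Its annotation lists 19 distinct transcript starts, of which 9 lay inside an H3K4me3 peak. The canonical start at position 52445226 of chromosome 12 had 12.6-fold H3K4me3 and 9.97-fold H3K9Ac. A group of 3 starts between 14265 and 13727 bp upstream lay under an H3K4me3 peak of 20.2-fold (−log10 q-value 61.0) and an H3K9Ac peak of 10.5-fold. The most distal start, 28610 bp upstream, lay under H3K4me3 of 9.46-fold and H3K9Ac of 8.07-fold. H3K4me1 was instead highest at the canonical start, with 7.66-fold, beside 6.41-fold at the middle group and 5.10-fold at the distal start. A CTCF peak of 18.0-fold extended from 28198 to 25218 bp upstream, within the distal block. The starts at 9637 to 7603 bp upstream and those from 1976 bp downstream onwards had no peak of the 3 marks.

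H3K4me1, H3K4me3 and H3K9Ac peaks that joined or overlapped were taken as 1 element, those over start sites included. There were 33 elements in the 10 regions, and 15 of them touched the canonical start site window of no protein-coding gene. The 2 blocks over upstream starts of NR4A1 described above are among them. Of these 15, 4 held all 3 marks, 3 held H3K4me1 with H3K9Ac, and 7 held H3K4me1 alone. Alone refers to peaks, and the H3K9Ac limits were stricter than those of H3K4me1. H3K9Ac intervals that did not pass them overlapped some of these elements, at FOS, FOSB, IER2 and NR4A1. The 15 elements were spread over 6 genes, FOS, FOSB, EGR3, IER2, JUND and NR4A1. JUN, JUNB, FOSL1 and EGR2 had 0 such elements. The share of coding genes with such an element was not computed, so these counts describe the 10 regions only. At JUN the peaks of all 3 marks were confined to the 3855 bp around the start site, in a region of 47204 bp with no other coding start site.

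The element 3′ of FOS lay 14594 to 17509 bp downstream of its start site, at chr14:75760125-75763040. It carried H3K4me1 of 6.01-fold, H3K4me3 of 9.16-fold and H3K9Ac of 6.91-fold, and a CTCF peak of 11.5-fold overlapped its far end. The annotation places the start of the long non-coding RNA LINC01220 there. H3K4me1 was higher at this element than at the FOS start site (5.58), whereas H3K4me3 and H3K9Ac were lower. At EGR3 an element 11710 to 9355 bp upstream carried H3K4me1 of 7.32-fold and H3K9Ac of 7.50-fold, close to the 7.42 and 8.84 of the EGR3 start site. Its H3K4me3 interval, 4.70-fold, did not pass the limits, and the annotation places the start of a long non-coding RNA there.

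FOSB had 4 distal elements. The largest lay 20260 to 10932 bp upstream, overlapping the neighbouring DNA repair gene ERCC1, with H3K4me1 of 6.15-fold, H3K4me3 of 6.40-fold and H3K9Ac of 6.90-fold. Those beginning 9925 and 16152 bp downstream carried H3K4me1 of 4.05-fold and 3.73-fold. The one at 24434 to 26298 bp, overlapping RTN2 and PPM1N, carried H3K4me1 of 5.68-fold and H3K4me3 of 7.29-fold. JUND and IER2 had long H3K4me1 and H3K9Ac blocks without H3K4me3 peaks. The JUND block measured 11942 bp, 28035 to 16094 bp upstream, and overlapped LSM4 at least in part. It had H3K4me1 of 7.52-fold and H3K9Ac of 6.35-fold. The IER2 block measured 16428 bp, 9482 to 25909 bp downstream, in a stretch where the annotation places no gene, with H3K4me1 of 7.51-fold and H3K9Ac of 7.29-fold. H3K4me3 intervals of 4.96-fold and 4.12-fold lay in the IER2 block but did not pass the limits. Which promoter such an element acts on cannot be read from these lists.

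Further peaks lay over no coding start site window. H3K4me1 was the only active mark with a peak 21253 to 18811 bp upstream of FOS, at 4.73-fold, and 19697 to 18083 bp upstream of IER2, at 3.76-fold. H3K9Ac intervals of 4.43-fold at FOS and 3.15-fold at IER2 overlapped them without passing the limits. NR4A1 had such an H3K4me1 peak 18957 to 17559 bp upstream, at 5.30-fold, where an H3K9Ac interval of 5.35-fold did not pass the limits. NR4A1 had another 10189 to 10660 bp downstream, at 4.49-fold, and EGR3 had one 19908 to 20738 bp downstream, at 4.09-fold. Those of JUNB and JUND were H3K4me3 and H3K9Ac peaks that joined larger elements through H3K4me1 or each other. JUNB had H3K4me3 of 11.2-fold 13951 to 12272 bp upstream and of 9.24-fold 9303 to 7704 bp upstream. JUND had H3K4me3 of 11.5-fold 11882 to 9625 bp upstream and H3K9Ac of 8.85-fold 13038 to 6144 bp upstream.

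In 5 regions a mark was highest over the start site of a neighbouring gene rather than at the immediate early gene. H3K4me3 and H3K9Ac reached 31.5-fold and 21.1-fold at ADO beside EGR2, and 27.1-fold and 15.03-fold at BIN3 beside EGR3. At PRDX2 and THSD8, next to JUNB, they reached 29.9-fold and 19.5-fold, and at ATG101, next to NR4A1, 23.3-fold and 13.6-fold. All 4 immediate early genes were lower than these neighbours for both marks. At FOSL1 the H3K9Ac maximum, 15.7-fold, ran from intron 2 past the transcript end over CCDC85B and FIBP, 6049 to 13617 bp downstream of the start site. An H3K4me3 peak of 19.7-fold, from the 3′ untranslated part of exon 4, lay in the same block. H3K4me1 was highest over C11orf68 and DRAP1, at 8.36-fold.

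CTCF peaks lay inside the region of 9 of 10 genes, beside 72.5% of coding genes with regions drawn in the same way. IER2 had 0 past the limits and 2 weaker intervals, of 4.24-fold over the start site and 2.74-fold 20275 bp downstream. JUND had the single CTCF peak at a start site, 4620 bp wide and 7.90-fold, from 405 bp upstream to 4214 bp downstream, over the whole single-exon gene. Its width was at percentile 99.7 and its fold enrichment at percentile 14.5 of the 2733 coding genes with a CTCF peak there. At EGR2 a CTCF peak of 13.9-fold lay 2656 to 1236 bp upstream and at EGR3 one of 7.73-fold 2545 to 1316 bp upstream, nearly the same place relative to both start sites. Both overlapped the upstream part of the H3K4me3 and H3K9Ac peaks. The remaining peaks were distal.

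FOSB had 3 distal CTCF peaks downstream, of 21.0-fold at 10213 bp, 12.9-fold at 17023 bp and 13.9-fold at 25238 bp, each within an H3K4me1 peak. JUN had 1, of 11.2-fold, 14271 bp downstream, without any active mark. FOS had 1 at 17085 bp. FOSL1 had 2, of 18.5-fold at 15167 bp and 16.2-fold at 11311 bp downstream. At these 4 genes every CTCF peak of the region thus lay past the 3′ end of the transcript. JUNB had 15.3-fold from 16106 bp upstream, over the start site of HOOK2, and 12.8-fold at 4850 bp downstream. JUND had a second one of 9.36-fold, 8662 bp downstream. EGR3 had one of 15.5-fold, 20005 bp downstream, under a narrow H3K4me1 peak. JUNB, EGR3 and NR4A1 had CTCF peaks on both sides of the transcript. In a region of 76676 bp, longer than the others of 41830 to 48525 bp, NR4A1 had 4, of 8.44-fold, 7.29-fold, 18.0-fold and 11.04-fold, from 47573 bp upstream to 18513 bp downstream.

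The CTCF core, a 12-base sequence, was searched in the same 18 peaks to show which of them held a recognisable site. The lines below give it in capitals with 10 bases on each side, on the strand of the match, from hg19. The JUNB and NR4A1 lines are exact matches, and the EGR2 line, from the peak upstream of its start site, differs at 1 base.
JUNB, chr19:12888538-12888569, + strand: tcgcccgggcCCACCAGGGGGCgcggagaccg
NR4A1, chr12:52419601-52419632, + strand: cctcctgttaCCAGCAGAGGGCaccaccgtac
NR4A1, chr12:52398006-52398037, + strand: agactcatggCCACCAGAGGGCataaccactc
EGR2, chr10:64578675-64578706, + strand: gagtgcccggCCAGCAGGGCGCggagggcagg

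An exact core was present in 4 of the 18 peaks, at JUNB, at EGR3 and in 2 peaks of NR4A1, and in 22.4% of all 24536 CTCF peaks. With up to 1 mismatch it was present in 12 of 18, and in 65.9% of all. The 18 peaks had a median width of 1061 bp and all CTCF peaks one of 739 bp. The peak with the highest fold enrichment of the 10 regions, 21.0-fold at FOSB, held no core within 1 mismatch, nor did the EGR3 peak upstream of the start site. The JUND peak held 3 sites with 1 mismatch.

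H3K27me3 and H3K36me3 were present only as weak intervals. H3K27me3 was listed in the regions of 2 of 10 genes, EGR2 and EGR3, beside 36.5% of coding genes, and 0 of these intervals passed the limits, as in most of the list, where 1552 of 55270 did. At EGR2 the interval measured 3771 bp and began 16440 bp downstream, at 3.33-fold with a −log10 q-value of 2.28. EGR3 had 3, of 2.65-fold at 4692 to 3384 bp upstream, 2.93-fold further upstream and 3.04-fold 13469 bp downstream. No interval reached the start site of either gene. The peak names inside the H3K27me3 list carry another prefix than the other lists and no cell line, so its cell line rests on the label alone.

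H3K36me3 intervals were listed in the regions of 8 of 10 genes, beside 70.5% of coding genes, and 0 passed the limits, as in nearly the whole list, where 90 of 40010 did. Of the listed intervals, 5 overlapped a transcript of the genes. At FOS the interval began 1791 bp inside the gene, in exon 3, with 3.36-fold, and at JUN it lay at 1490 to 2071 bp, from the coding part into the 3′ untranslated part of exon 1, with 3.16-fold. At FOSL1 it was 7136 bp wide, from intron 1 past the transcript end, with 3.57-fold, and at NR4A1 it began in intron 3 with 2.95-fold. IER2 had 2.94-fold in exon 2. FOSB and EGR3, which were among the lowest for H3K4me3, had no H3K36me3 interval, and JUNB, JUND and EGR2 had none over the transcript.

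The related genes fixed in 3 lists were described in the same way. Of 23 other immediate early genes, 20 had an H3K4me3 peak at the start site, with a median of 23.8-fold. The highest was DUSP2, a MAP kinase phosphatase, at 39.5, and the lowest was ARC, of neuronal synapses, at 11.96. EGR4, SGK1, a serum-induced kinase, and NPAS4, a neuronal activity factor, had none at the canonical start, and EGR4 had an H3K4me1 peak alone. Of 12 other AP-1 and bZIP partners, 10 had H3K4me3, with a median of 19.7. MAFG, a small MAF protein, was highest at 50.1, BATF3 was lowest at 9.33, and BATF and BATF2, of lymphoid and myeloid cells, had none. All 12 upstream activators had H3K4me3, with a median of 22.6, from SRF at 37.6 to the ETS factor ELK1 at 7.87. The median of the 10 genes themselves was 16.9, beside 22.5 over coding genes, and no test was made of these differences.

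ATF3, a stress-induced AP-1 partner, and BATF3 had H3K27me3 peaks at the start site, of 4.30-fold and 4.32-fold, together with H3K4me1, H3K4me3, H3K9Ac and CTCF. Of the 47 genes of the lists, 2 thus had an H3K27me3 peak there, beside 1.22% of coding genes. With every deposited interval counted, 6 of the 47 had an H3K27me3 interval there, and the share of coding genes was not computed in that setting. EGR2 and EGR3 did not share this arrangement, as their H3K27me3 intervals were weaker and away from the start site.

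**Figure D5:**
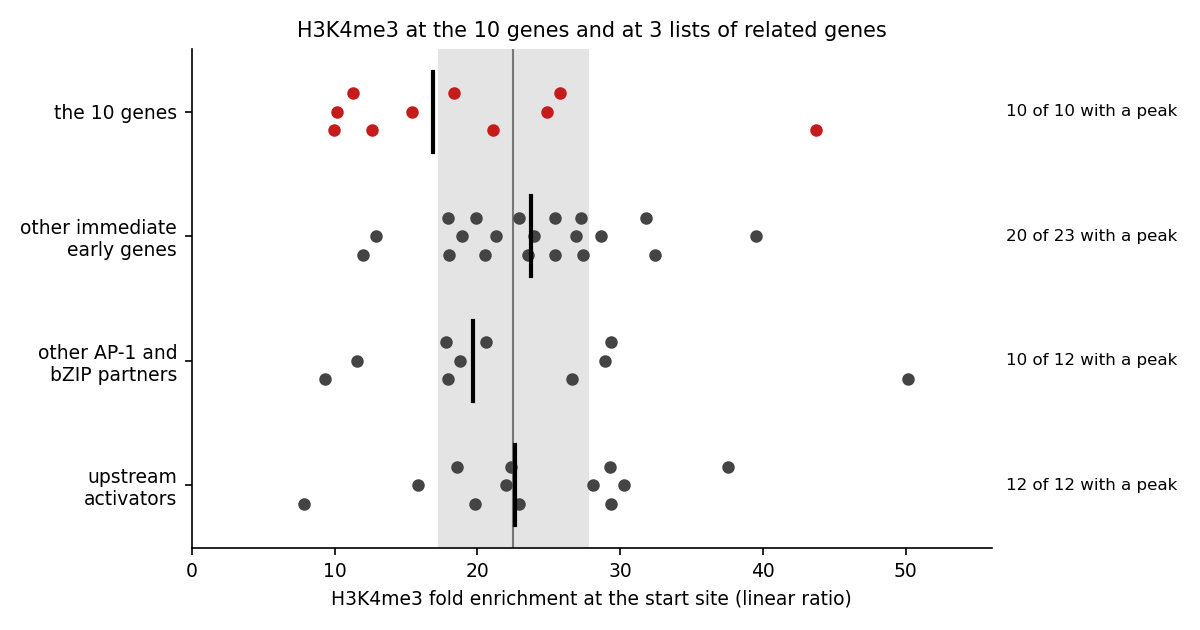
H3K4me3 fold enrichment at the start site of the 10 genes (red) and of 3 lists of related genes (dark grey), with the median of each list as a black bar and the quartiles and median of all coding genes as grey band and line. Vertical offsets only separate points, genes without a peak are counted at the right, and the 10 genes have the lowest list median, 16.9.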

How the data were processed

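HCT116 cells in culture plates were crosslinked and sheared with PIXUL, and ChIP and library preparation used the Low Cell ChIP-Seq Kit of Active Motif. Alignment by the authors was to hg19, with BWA 0.7.12, and their peak calls were made with MACS2 in broad mode (cutoff 0.1). The submitters' processing notes list bcl2fastq 2.20.0.442, SAMtools 0.1.19 and MACS 1.4.2. Each library had its own peak calls, without stated pooling. In the deposited lists the authors give each interval a fold enrichment, which is a linear ratio over background, a −log10 p-value, a −log10 q-value and a display score, which was not used.

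Samples were grouped by the antibody in their labels. Genes, transcripts and start sites came from GENCODE 44 mapped to hg19, the build of the lists, and 19881 of 20163 coding genes had a canonical transcript. Where none was annotated, the gene's 5′ end served. Overlaps required at least 1 bp. Percentiles compare the highest start site peak of a gene with those of all coding genes that have one. They are descriptions and no p-value was computed, since there was 1 library per mark. Motifs were searched in 500 bases upstream of start sites. Shares carry 95% Wilson intervals where printed. Depth is not known from the lists, and it changes how many intervals are called and how wide they are.

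The genes and lists were chosen with earlier results of these data known. All 10 genes were described with every start site peak. Other peaks were named if they overlapped a gene body, were the highest of their mark in a region, were H3K27me3, H3K36me3 or CTCF peaks, or lay over no promoter. Related genes were named if highest, lowest or without H3K4me3, or with H3K27me3. Features outside this rule were named after their values were seen. Overlap code was tested on simulated data and checked against bedtools 2.31.1 for 6 marks, and 0 genes differed. Sequences were read with pyfaidx 0.9.0.4, figures were drawn with matplotlib 3.10.9, and the rest used pandas 2.3.3, scipy 1.17.1 and numpy 2.4.6 under Python 3.11.15. The alternatives were all deposited intervals, a fold enrichment limit multiplied by 1.5, the limits given for the other marks, other start site windows and start sites, a shorter flank, a stricter overlap, other motif windows and 1 mismatch in the CTCF core.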

Additional observations from a re-analysis of the deposited data

How the results depend on the processing

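No paired analysis was possible because there was 1 library for each antibody. Of 118 values computed under an alternative, 103 stayed within 1.5 times the main count or within the limits set for the other values, and 15 moved. H3K4me3 and H3K9Ac at the start sites, and the presence of all 3 active marks there, stayed within those limits under every alternative run. The stricter H3K4me1 limits were not run for that combination, which could hold at no more than 5 of the 10 genes under them. H3K4me1 was found at 5 of the 10 start sites under the stricter limits of the other marks, in place of 10, and a flank of 10000 bp left 23 H3K4me1 peaks in the regions in place of 35. With all deposited intervals the regions held 4 H3K27me3, 19 H3K36me3 and 32 CTCF intervals in place of 0, 0 and 18. In the same setting 6 of the 47 related genes had an H3K27me3 interval at the start site in place of 2. CTCF at the start site, present at 1 gene, was present at 6 with all deposited intervals, at 6 with the looser limits, at 4 with a start site window of 5000 bp and at 3 when any annotated start of the gene counted. The wider window takes in the EGR2 and EGR3 peaks upstream. Among motifs, a window of 250 bases left the CArG box at 2 genes, the CRE at 1, the ETS site at 1 and the EGR site at 1. With 1 library per mark and unknown depth, a weak or missing interval is not evidence that a mark is absent, and differences between single fold enrichments have no error.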
